A study of Homo sapiens with 18 samples.

Results

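Metalloproteases and their inhibitors were examined in DU145 and CWR22Rv1 cells, a pair of established human prostate cancer lines, after transfection with siRNA. The gene set took every symbol of the MMP, ADAM and ADAMTS number series and TIMP1 to TIMP4, and read each gene from its brightest probe set on average, among those annotated to 1 symbol. It held 64 of the 19775 genes measured this way, namely 22 MMP, 20 ADAM, 18 ADAMTS and 4 TIMP genes. ADAM5 and ADAM6 were counted by symbol, although they are not among RefSeq's protein-coding genes. ADAM29, MMP23A and MMP23B lay only on probe sets shared with other genes and were not analysed here. The 6 groups were DU145 with Stat3 siRNA, DU145 with Stat5a/b siRNA, DU145 with scramble siRNA, and CWR22Rv1 with the same 3 siRNAs, with 3 arrays in each group and 18 arrays in all. All groups shared the transfection reagent and the harvest at 48 h. Each line is a single cell line in culture, DU145 derived from a metastasis and CWR22Rv1 from a relapsed xenograft, so differences between them are differences between 2 lines. The labels describe triplicates without saying that they were separate cultures, so the p-values rest on a spread between samples that may be purely technical.

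Matrix metalloproteases (MMPs) are zinc enzymes that cut collagens, laminins and other matrix proteins, and most are made as inactive precursors. ADAM proteins combine a metalloprotease with a disintegrin domain, and those with an active site release growth factors, cytokines and receptors from the cell surface, a step called shedding. ADAMTS enzymes are secreted and cut proteoglycans, procollagens and von Willebrand factor, while TIMPs are small proteins that block the active site. Stat3 and Stat5a/b are transcription factors switched on by cytokine and growth factor receptors, and invasion of prostate carcinoma is a setting in which these proteases have been studied widely.

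Values are log2 expression, on which 1 unit is a doubling, and a change is given with its standard error from 1 linear model over the 6 groups (limma). A gene was called where the Benjamini-Hochberg adjusted p over all genes was under 0.05. That error pools all groups, whereas the median SD of a gene within a group was 0.126 to 0.112 in the DU145 groups and 0.0824 to 0.0724 in the CWR22Rv1 groups. STAT3 fell by 1.62 in DU145 with Stat3 siRNA and by 1.13 in CWR22Rv1 with Stat3 siRNA, each against scramble. STAT5B fell by 1.36 in DU145 and by 0.91 in CWR22Rv1 with Stat5a/b siRNA, and STAT5A measured -0.30 and -0.34 in those comparisons without being called (adjusted p = 0.101 and 0.146). The targets thus checked the labels of both siRNAs, and neither siRNA gave a called change of the other's target. KLK2, TMPRSS2 and HOXB13, luminal prostate genes, were higher in CWR22Rv1 scramble arrays, while VIM and AXL, mesenchymal genes, were higher in DU145 scramble arrays. KLK3, another luminal gene, averaged 6.76 in CWR22Rv1 and 6.69 in DU145 scramble arrays. Arrays of 1 group correlated at 0.993 or more across probe sets, which are not independent replicates. Such a correlation does not show whether an array stood apart for single genes. AXL, for example, read 11.59 on DU145 scramble replicate 3 and 11.68 on DU145 Stat3 siRNA replicate 3. The other arrays of those groups read 12.22 to 12.33. In bulk RNA, fewer cells with a transcript and less of it per cell cannot be told apart.

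Of the 64 genes, 25 had a mean above the 40th percentile of all gene means, 5.54, and 39 lay at or below it. Values of members on single arrays ran from 2.19 to 12.58. Against scramble, 17 members were called in at least 1 of the 4 siRNA comparisons and 47 in none. Of the 17, 14 were called in 1 comparison, ADAMTS15 in 2, and ADAM17 and ADAM22 in 3. In every siRNA comparison against scramble the share of members called lay below that of all genes, as the plot of shares called shows.

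**Figure D1:**
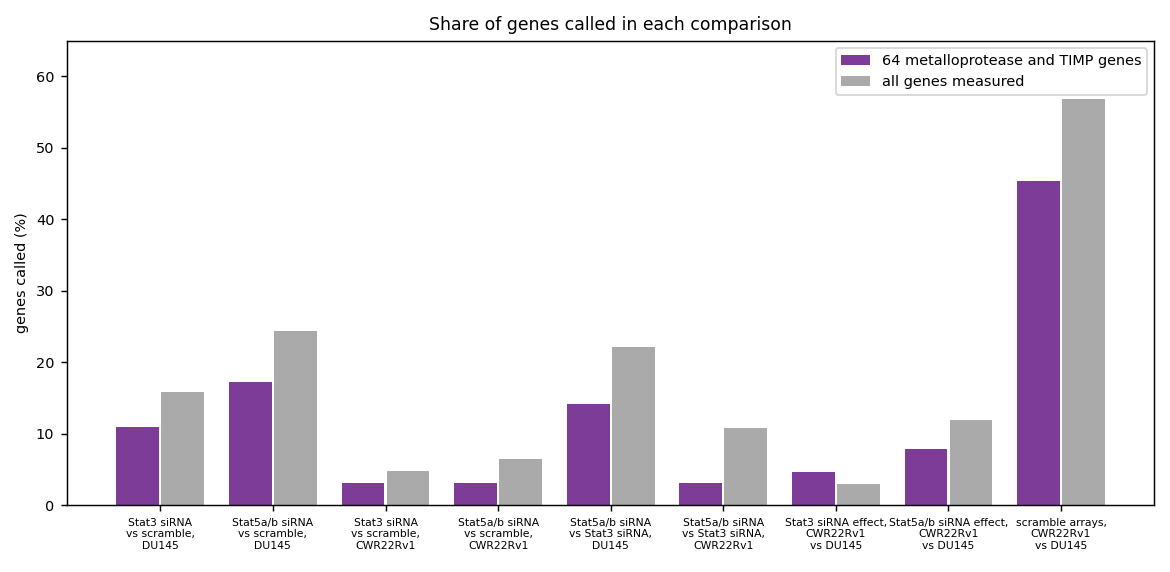
Share of genes called (adjusted p under 0.05, limma) in percent, for the 64 metalloprotease and TIMP genes and for all 19775 genes, in each of 9 comparisons. The members' bar is the lower of the pair in 8 comparisons, and in the difference of the Stat3 siRNA effect between the lines it is the higher, at 4.69% against 3.00%.

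In DU145, Stat3 siRNA raised the sheddases ADAM12, ADAM19 and ADAM17, the collagenase MMP1 and the membrane-type protease MMP14, and lowered ADAM22 and ADAMTS15. These 7 of 64 members (5 higher, 2 lower) compare with 15.8% of all genes called (7.51% higher, 8.25% lower). The members' median change was 0.0091, against 0.0056 for all genes. All 3 Stat3 siRNA arrays lay beyond all 3 scramble arrays in 13 members, 10 higher and 3 lower, where 26.2% of all genes did so.

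ADAM12, a disintegrin metalloprotease with a membrane-anchored and a secreted form, read 7.28, 7.26 and 7.16 with Stat3 siRNA in DU145, against 5.80, 5.75 and 5.99 with scramble. The groups were wide apart, and the difference of 1.39 ± 0.084 (SE, n = 3 each, limma adjusted p = 2.22e-08) was a 2.62-fold rise. ADAM19, a sheddase of neuregulins, read 8.31, 8.23 and 7.90 with Stat3 siRNA, against 7.02, 7.01 and 7.17 with scramble. It rose by 1.08 ± 0.136 (n = 3 each, limma adjusted p = 3.93e-05), again without overlap. Other probe sets of these genes did not all move: for ADAM12, 2 of the other 4 rose, by 1.51 and 1.06, and 2 measured -0.07 and -0.19. The second ADAM19 probe set measured -0.01. The lists of transcripts each probe set detects were not used here.

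ADAM12 and ADAM19 were the sheddases with the largest rises in that comparison, so their promoters are shown. Both windows run from 250 bases before to 50 bases after the RefSeq start of the gene on the minus strand of GRCh38.p14, at chr10:126388428-126388727 for ADAM12 and chr5:157575726-157576025 for ADAM19. Neither holds TTCNNNGAA, the palindrome of STAT binding sites, or TGANTCA, so no base is in capitals. TGANTCA is a loose form of the AP-1 site, which has C or G as its middle base.
ADAM12: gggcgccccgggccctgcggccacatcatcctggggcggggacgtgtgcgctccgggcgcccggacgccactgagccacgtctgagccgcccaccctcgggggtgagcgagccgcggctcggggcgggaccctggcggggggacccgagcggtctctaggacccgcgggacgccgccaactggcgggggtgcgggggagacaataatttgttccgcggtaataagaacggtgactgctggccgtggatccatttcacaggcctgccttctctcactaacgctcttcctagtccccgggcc
ADAM19: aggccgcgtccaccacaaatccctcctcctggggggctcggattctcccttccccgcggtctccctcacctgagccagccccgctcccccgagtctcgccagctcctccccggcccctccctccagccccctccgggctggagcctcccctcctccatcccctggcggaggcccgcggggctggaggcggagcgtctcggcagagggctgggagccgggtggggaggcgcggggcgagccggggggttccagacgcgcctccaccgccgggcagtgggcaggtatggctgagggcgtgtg
G and C made up 71% of the ADAM12 window and 75.7% of the ADAM19 window. Both motifs read the same on either strand and do not overlap each other. TTCNNNGAA occurred in 7.88% of 27305 promoters of this length and in 0 of the 36 promoters found for members, which says only that these letters are not in these windows.

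MMP1, the interstitial collagenase that opens fibrillar collagen, read 4.50, 3.96 and 4.47 with Stat3 siRNA in DU145, against 3.03, 3.34 and 3.14 with scramble. Its rise of 1.14 ± 0.237 (n = 3 each, limma adjusted p = 0.00303) was called although its mean over all arrays, 3.18, lay near the 10th percentile of gene means, 3.17. MMP14, a membrane-type MMP that cuts collagen and activates MMP2, read 7.56, 7.59 and 7.33 with Stat3 siRNA, against 7.03, 7.20 and 6.97 with scramble. The difference was 0.43 ± 0.112 (n = 3 each, limma adjusted p = 0.0158). With DU145 fitted alone it missed the threshold (0.0556), and likewise, at adjusted p from 0.0506 to 0.0626, without scramble replicate 1 or 3 or Stat3 siRNA replicate 1 or 2. All 4 MMP14 probe sets were higher, by 0.33 to 0.66, and 3 passed a test over all probe sets.

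ADAM17, the sheddase of tumour necrosis factor and of several ligands of the EGF receptor, read 10.07, 10.11 and 9.98 with Stat3 siRNA in DU145, against 9.71, 9.77 and 9.53 with scramble. It rose by 0.38 ± 0.068 (n = 3 each, limma adjusted p = 0.000987). ADAM22, which lacks a working active site and binds LGI1 at synapses, fell by 0.73 ± 0.088 (adjusted p = 2.55e-05, limma), to 5.72, 5.55 and 5.31 in Stat3 siRNA arrays, against 6.27, 6.23 and 6.26 in scramble arrays. ADAMTS15, a protease of hyaluronan-binding proteoglycans, fell by 0.78 ± 0.171 (adjusted p = 0.00476, limma). Its values were 6.49, 6.93 and 6.41 with Stat3 siRNA, against 7.54, 7.36 and 7.27 with scramble, while its second probe set measured 0.04. None of these groups overlapped.

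The other 57 members were not called with Stat3 siRNA in DU145, and 47 of the 64 lay within 0.2 of no change. The largest uncalled values were 0.27 for ADAM6 and -0.31 for ADAMTS16. Among the roles, 1 of 3 collagenases, 1 of 6 membrane-type MMPs and 3 of 9 ADAM sheddases rose, and 1 of 7 ADAMTS proteoglycanases fell. Of all genes, 7.51% were called higher and 8.25% lower, and lists this short were not tested by role. No stromelysin (of 3), no ADAM of the testis (of 5) and no TIMP passed limma's adjusted test, nor an unadjusted p under 0.05 in any of these 3 lists. ADAM9, a sheddase, read 12.37, 12.58 and 12.57 with Stat3 siRNA, against 12.13, 12.54 and 12.33 with scramble (0.17 ± 0.088, n = 3 each, limma adjusted p = 0.223, and 0.0396 without scramble replicate 2). MMP7 (matrilysin) read 3.94, 3.61 and 3.72 with Stat3 siRNA, against 3.95, 4.11 and 3.94 with scramble (adjusted p = 0.132 in limma, and 0.0446 without Stat3 siRNA replicate 1). MMP2 and MMP9, the gelatinases, measured 0.23 and 0.11, and ADAM10 measured -0.04.

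**Figure D2:**
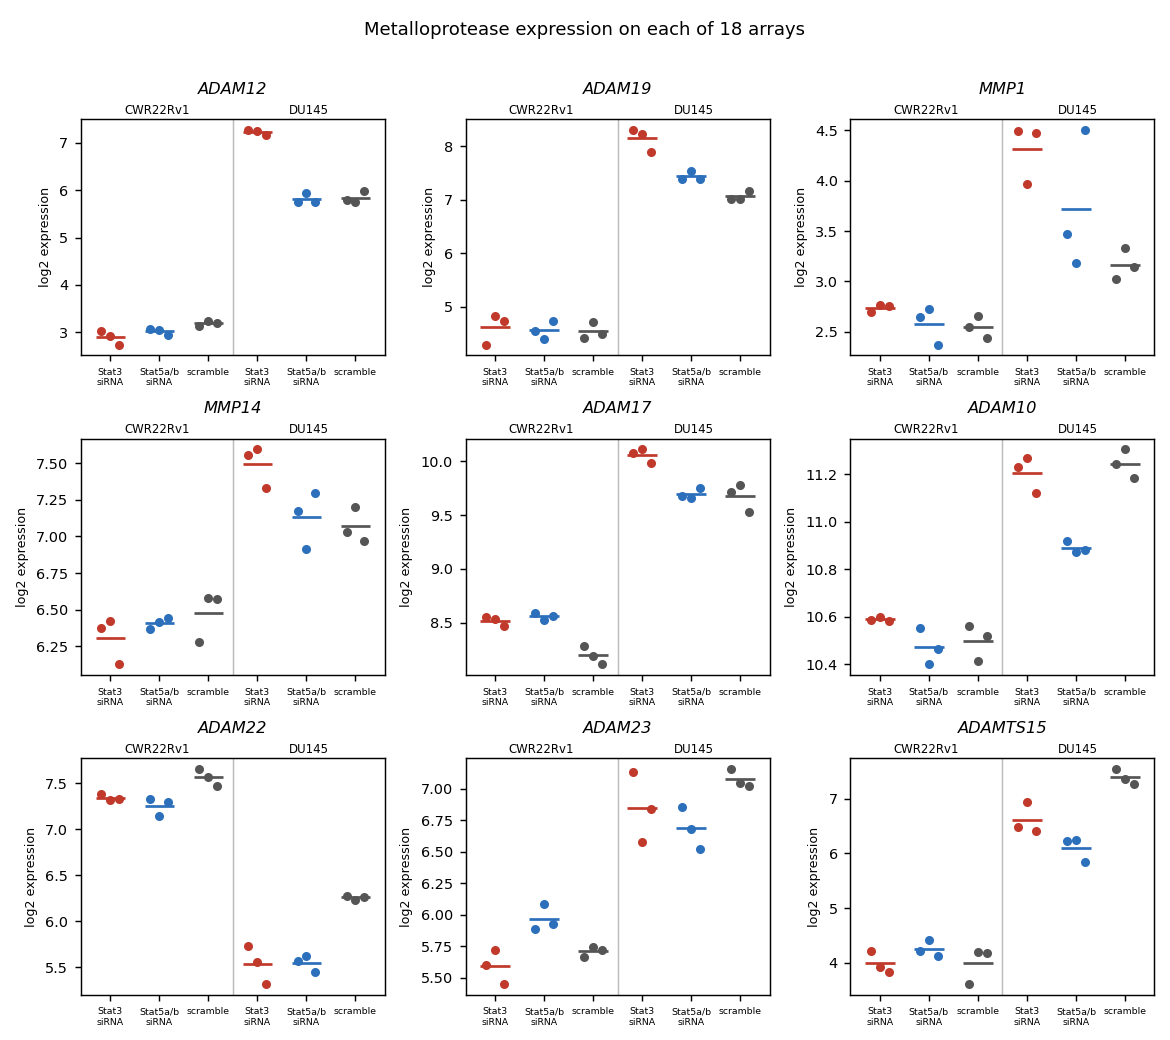
Log2 expression of 9 members on each of 18 arrays, with CWR22Rv1 left of DU145 and, within a line, Stat3 siRNA, Stat5a/b siRNA and scramble; points are arrays and lines are group means. ADAM12 stood above 7 only on the 3 DU145 arrays with Stat3 siRNA, and the ADAM10 arrays with Stat5a/b siRNA in DU145, at 10.87 to 10.92, lay below the other DU145 arrays.

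In DU145 with Stat5a/b siRNA, ADAMTS15 and ADAM22 fell most, ADAM10, ADAM23, ADAMTS3 and TIMP4 fell by less, and ADAMTS2, MMP28, ADAMTS18, MMP2 and ADAM33 rose slightly. These 11 of 64 members (5 higher, 6 lower) compare with 24.3% of all genes called (11.8% higher, 12.5% lower). With DU145 fitted alone, 1 was higher and 4 lower, as ADAM23, ADAM33, ADAMTS18, ADAMTS3, MMP2 and MMP28 missed the threshold (adjusted p from 0.0575 to 0.141, limma). The median change was -0.03 in members and 0.01 in all genes. Without overlap of the arrays, 5 members were higher and 10 lower, against 34.4% of all genes either way. The Stat3 and Stat5a/b comparisons in a line share their scramble arrays, so a common direction is not independent.

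ADAMTS15 read 6.22, 6.25 and 5.84 with Stat5a/b siRNA in DU145, against 7.54, 7.36 and 7.27 with scramble. That was a fall of 1.28 ± 0.171 (n = 3 each, limma adjusted p = 4.78e-05), to 41.2% of scramble. Its second probe set again measured no change, at -0.02. ADAM22 read 5.57, 5.62 and 5.45 with Stat5a/b siRNA, against 6.27, 6.23 and 6.26 with scramble, a fall of 0.71 ± 0.088 (n = 3 each, limma adjusted p = 2.1e-05). In a test over all probe sets, 5 of the other 7 ADAM22 probe sets fell as well, by 0.34 to 0.90.

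ADAM10, the sheddase that starts cleavage of Notch receptors, read 10.92, 10.87 and 10.88 with Stat5a/b siRNA in DU145, against 11.24, 11.30 and 11.19 with scramble. Its fall of 0.35 ± 0.061 (n = 3 each, limma adjusted p = 0.00045) left 78.3% of scramble. All 3 ADAM10 probe sets fell, the other 2 by 0.40 and 0.42. ADAM23, another LGI1-binding ADAM without a working active site, read 6.85, 6.68 and 6.52 with Stat5a/b siRNA, against 7.16, 7.05 and 7.02 with scramble. It fell by 0.39 ± 0.118 (adjusted p = 0.0235, limma), and missed the threshold (0.0566 to 0.092) without scramble replicate 1 or Stat5a/b siRNA replicate 2 or 3. It also missed it with the mean of all its probe sets (0.0897).

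ADAMTS3, a protease that trims procollagens and activates VEGF-C, read 3.14, 3.17 and 3.09 with Stat5a/b siRNA in DU145, against 3.57, 3.88 and 3.53 with scramble (-0.53 ± 0.135, n = 3 each, limma adjusted p = 0.0089, and 0.0511 without scramble replicate 2). All of these values were low. ADAMTS2, the main procollagen I N-proteinase, moved the other way, with 5.40, 5.34 and 5.26 with Stat5a/b siRNA, against 4.90, 4.92 and 5.10 with scramble. It rose by 0.36 ± 0.082 (adjusted p = 0.00403, limma), but the mean of its 3 probe sets was not called (0.198). The remaining rises were MMP28 (0.36), ADAMTS18 (0.35), MMP2 (0.30) and ADAM33 (0.24), and the arrays of MMP28 and of ADAMTS18 overlapped. MMP2 read 4.43, 4.69 and 4.50 with Stat5a/b siRNA, against 4.15, 4.36 and 4.22 with scramble. Each of these 4 genes missed the threshold on leaving out any of at least 4 of the 6 arrays, at adjusted p from 0.0517 to 0.188. MMP28 was not called with the mean of its probe sets either (0.401), and ADAM33 was -0.11 with the mean of its probe sets, as its other probe set fell by 0.46.

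MMP1 was variable with Stat5a/b siRNA in DU145, at 3.47, 3.19 and 4.51, against 3.03, 3.34 and 3.14 with scramble (0.55 ± 0.237, n = 3 each, limma adjusted p = 0.105). Replicate 3 alone was high. MMP14 read 7.17, 6.92 and 7.30, against 7.03, 7.20 and 6.97, and ADAM17 read 9.67, 9.66 and 9.75, against 9.71, 9.77 and 9.53. Both genes overlapped between the groups. ADAM9 measured 0.01, MMP7 -0.16 and MMP9 0.12, none of them called. Of 3 collagenases, 3 stromelysins and 2 matrilysins none passed limma's adjusted test, and at an unadjusted p under 0.05 there was 1 collagenase.

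In CWR22Rv1, few members were called. Stat3 siRNA raised ADAM17 and MMP10, 2 of 64 members, where 4.77% of all genes were called (2.75% higher, 2.02% lower). Stat5a/b siRNA raised ADAM17 and lowered ADAM22, again 2 of 64, where 6.46% of all genes were called (3.16% higher, 3.30% lower). The members' median change was -0.05 with Stat3 siRNA and 0.04 with Stat5a/b siRNA. Without overlap, 10 members were higher and 9 lower with Stat3 siRNA (32.3% of all genes), and 5 higher and 4 lower with Stat5a/b siRNA (31.1% of all genes). With CWR22Rv1 fitted alone, 2 members were called higher and 2 lower with Stat3 siRNA, beside 2059 of all 19775 genes. With Stat5a/b siRNA that fit called 2 higher and 1 lower, beside 2372 of all genes.

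In CWR22Rv1, ADAM17 arrays read 8.56, 8.54 and 8.47 (Stat3 siRNA) and 8.59, 8.53 and 8.56 (Stat5a/b siRNA), against 8.28, 8.20 and 8.12 with scramble. The rises were 0.32 ± 0.068 (adjusted p = 0.0115) and 0.36 ± 0.068 (adjusted p = 0.0038) in limma. The first was lost, at 0.0728 without scramble replicate 3 and at 0.0586 without Stat3 siRNA replicate 1. With the mean of all 3 ADAM17 probe sets neither was called (0.0665 and 0.118), the other 2 measuring 0.14 and 0.36 with Stat3 siRNA and 0.21 and 0.12 with Stat5a/b siRNA.

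MMP10 (stromelysin-2) read 3.39, 3.18 and 3.41 with Stat3 siRNA in CWR22Rv1, against 2.90, 2.91 and 3.01 with scramble. It rose by 0.38 ± 0.089 (adjusted p = 0.0203, limma), with a mean over all arrays of 2.93, below the 10th percentile of gene means. The call was lost, at adjusted p from 0.0765 to 0.095, without scramble replicate 1 or 2 or without Stat3 siRNA replicate 1 or 3. ADAM22 read 7.32, 7.14 and 7.30 with Stat5a/b siRNA, against 7.65, 7.57 and 7.47 with scramble (-0.31 ± 0.088, n = 3 each, limma adjusted p = 0.0434). That call was lost on leaving out any 1 of the 6 arrays, at 0.0597 to 0.202, and with the mean of all its probe sets (0.0974).

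Members with uncalled values as large included ADAMTS20, at 0.50 with Stat3 siRNA (adjusted p = 0.0558, limma), and MMP16, at -0.45 with Stat3 siRNA and -0.29 with Stat5a/b siRNA. ADAM12 read 3.02, 2.93 and 2.74 with Stat3 siRNA and 3.07, 3.05 and 2.94 with Stat5a/b siRNA, against 3.14, 3.23 and 3.20 with scramble (-0.29, adjusted p = 0.0585, and -0.17). All its CWR22Rv1 values lay near or below the 10th percentile of gene means. MMP14 measured -0.17 and -0.07, ADAM10 0.09 and -0.03, ADAM9 0.07 and -0.03, MMP2 -0.05 and 0.01, MMP7 -0.07 and 0.02, and MMP9 -0.12 and 0.07, for Stat3 and Stat5a/b siRNA in that order. None of the 18 ADAMTS genes was called by limma with either siRNA, and at an unadjusted p under 0.05 there were 3 with Stat3 siRNA and 0 with Stat5a/b siRNA.

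Of the TIMPs, only TIMP4 was called against scramble, with Stat5a/b siRNA in DU145. TIMP1, a secreted inhibitor of most MMPs, read 11.16, 11.10 and 11.07 with Stat3 siRNA and 10.96, 10.94 and 10.91 with Stat5a/b siRNA in DU145, against 11.14, 11.08 and 10.98 with scramble. The Stat5a/b arrays lay just below the scramble arrays (-0.13 ± 0.058, n = 3 each, limma adjusted p = 0.12, and 0.0402 with trend and robust eBayes). In CWR22Rv1 TIMP1 measured -0.03 with Stat3 siRNA and 0.09 with Stat5a/b siRNA.

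TIMP2, which inhibits MMPs and also helps MMP14 to activate MMP2, read 10.96, 10.92 and 10.98 with Stat3 siRNA and 10.96, 10.89 and 10.85 with Stat5a/b siRNA in DU145, against 11.12, 11.16 and 11.06 with scramble. Both groups lay below scramble, by 0.16 and 0.21, without being called (adjusted p = 0.279 and 0.0994, limma). With the mean of its 3 probe sets the Stat5a/b value was called (adjusted p = 0.00932). In CWR22Rv1 it measured -0.26 and -0.14 at values between 4.35 and 4.89.

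TIMP3, the matrix-bound inhibitor of MMPs and of ADAM17, read 5.47, 6.23 and 5.81 with Stat3 siRNA and 5.999, 6.23 and 5.78 with Stat5a/b siRNA in DU145, against 5.70, 5.88 and 5.81 with scramble, and overlapped throughout. TIMP4, the inhibitor with the narrowest tissue range, read 5.19, 4.63 and 4.70 with Stat3 siRNA and 4.54, 4.58 and 4.43 with Stat5a/b siRNA, against 4.86, 4.97 and 5.25 with scramble. Its fall of 0.51 ± 0.149 with Stat5a/b siRNA was called (adjusted p = 0.0193, limma), but not without scramble replicate 3 or Stat5a/b siRNA replicate 3 (0.0827 and 0.0583). In CWR22Rv1 TIMP4 measured -0.43 and -0.14, with Stat3 and Stat5a/b siRNA, uncalled. No TIMP was called by limma in CWR22Rv1 with either siRNA, and at an unadjusted p under 0.05 there were 2 with Stat3 siRNA and 0 with Stat5a/b siRNA.

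**Figure D3:**
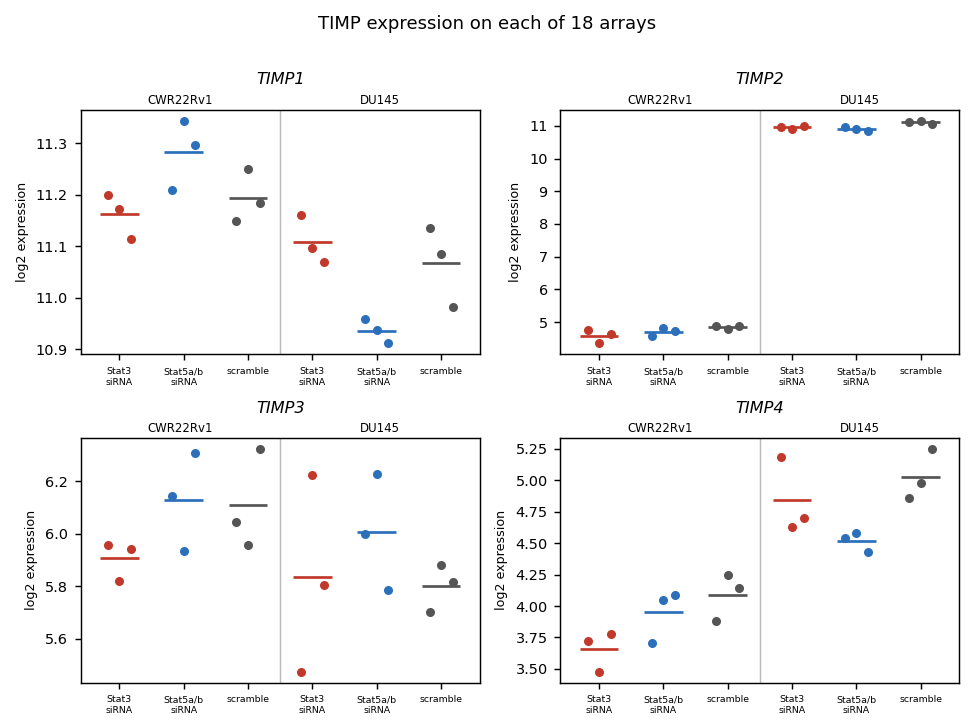
Log2 expression of the 4 TIMP genes on each of 18 arrays, with CWR22Rv1 left of DU145 and, within a line, Stat3 siRNA, Stat5a/b siRNA and scramble; points are arrays and lines are group means. TIMP2 lay between 4.35 and 4.89 on all CWR22Rv1 arrays and at 10.85 or more on all DU145 arrays, while the TIMP1 axis spans less than 0.5.

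Set against Stat3 siRNA, Stat5a/b siRNA gave lower ADAM12, ADAM19, ADAM17, MMP14, ADAM10, ADAMTS15 and TIMP1 and higher ADAMTS2 and ADAM32 in DU145. These 9 of 64 members (2 higher, 7 lower) compare with 22.1% of all genes called (11.0% higher, 11.2% lower), and without overlap 4 were higher and 10 lower, against 30.7% of all genes. ADAM12 read 5.75, 5.95 and 5.75 with Stat5a/b siRNA, against 7.28, 7.26 and 7.16 with Stat3 siRNA, a difference of -1.42 ± 0.084 (n = 3 each, limma adjusted p = 7.43e-09). ADAM19 read 7.39, 7.54 and 7.39 with Stat5a/b siRNA, against 8.31, 8.23 and 7.90 with Stat3 siRNA, a difference of -0.71 ± 0.136 (n = 3 each, limma adjusted p = 0.00123). For both genes the arrays did not overlap.

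ADAM17 was lower by 0.36 ± 0.068 (adjusted p = 0.0011) and ADAM10 by 0.32 ± 0.061 (adjusted p = 0.00119) with Stat5a/b siRNA than with Stat3 siRNA in DU145, in limma. With ADAM12 and ADAM19, 4 of 9 ADAM sheddases were called lower and none higher, where 11.2% of all genes were lower and 11.0% higher. ADAM12, ADAM17 and ADAM19 averaged 5.82, 9.69 and 7.44 with Stat5a/b siRNA, against 5.85, 9.67 and 7.07 with scramble. Their differences here rest on the same Stat3 siRNA arrays as their rises with Stat3 siRNA against scramble. With the mean of its probe sets ADAM17 was not called (0.123). ADAMTS2 was higher by 0.37 ± 0.082 (adjusted p = 0.00382, and 0.0712 with the mean of its probe sets). The 4 weaker calls were lost on leaving out any of 3 to 5 of the 6 arrays. They were ADAMTS15 (-0.50, adjusted p then 0.0503 to 0.194, and 0.0794 with the mean of its probe sets), MMP14 (-0.36, then 0.0506 to 0.141), ADAM32 (0.35, then 0.1 to 0.159) and TIMP1 (-0.17, then 0.0673 to 0.13). All 4 were lost as well with DU145 fitted alone (0.0615 to 0.177). ADAM32 had a mean over all arrays of 2.90, below the 10th percentile of gene means, 3.17. MMP1 was uncalled at -0.59 (adjusted p = 0.0904).

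In CWR22Rv1 only MMP10 and ADAMTS20 differed between the siRNAs, 2 of 64 members where 10.8% of all genes were called (4.70% higher, 6.05% lower). Both were lower with Stat5a/b siRNA. MMP10 read 2.98, 2.88 and 2.91 with Stat5a/b siRNA, against 3.39, 3.18 and 3.41 with Stat3 siRNA (-0.40 ± 0.089, n = 3 each, limma adjusted p = 0.00736). ADAMTS20, a proteoglycanase, read 4.50, 4.04 and 3.85 with Stat5a/b siRNA, against 4.69, 4.63 and 4.58 with Stat3 siRNA (-0.50 ± 0.142, n = 3 each, limma adjusted p = 0.0326). Leaving out any of 5 of the 6 arrays ended that call (0.0688 to 0.168), the exception being Stat5a/b siRNA replicate 1. Without overlap, 8 members were higher and 5 lower, where 36.8% of all genes did not overlap.

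**Figure D4:**
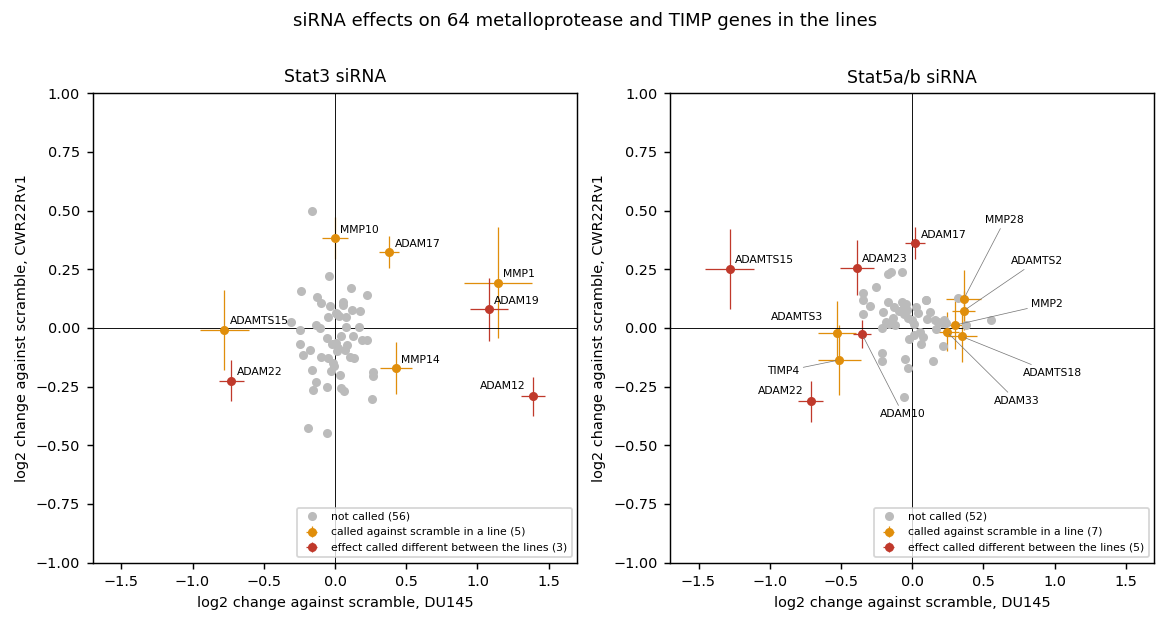
Log2 change against scramble in CWR22Rv1 (vertical) and in DU145 (horizontal) for the 64 members, with Stat3 siRNA on the left and Stat5a/b siRNA on the right; bars are standard errors of called members. ADAM12 and ADAM19 lie far right near the middle with Stat3 siRNA, and ADAMTS15 lies far left with Stat5a/b siRNA, at -1.28 in DU145 and 0.25 in CWR22Rv1.

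The effects were next compared between the lines, as the change in CWR22Rv1 minus the change in DU145. For Stat3 siRNA the difference was called for 3 of 64 members (1 higher, 2 lower), beside 3.00% of all genes (1.82% higher, 1.18% lower). It was -1.68 ± 0.118 for ADAM12 (adjusted p = 4.05e-06), from -0.29 in CWR22Rv1 and 1.39 in DU145, and it was called in each of 12 fits without 1 array. For ADAM19 it was -1.001 (adjusted p = 0.0113), from 0.08 in CWR22Rv1 and 1.08 in DU145, and it was not called with the mean of both probe sets (0.105). For ADAM22 it was 0.50 (adjusted p = 0.0391), from -0.22 and -0.73, and was lost in 11 of 12 fits without 1 array (0.0506 to 0.106) and with the mean of its probe sets (0.356). MMP1, at 0.19 in CWR22Rv1 and 1.14 in DU145, did not pass the test of the difference (-0.95, adjusted p = 0.148, limma), nor did MMP14 (-0.60, adjusted p = 0.0549).

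For Stat5a/b siRNA the difference was called for 5 of 64 members, all with a higher value in CWR22Rv1, beside 11.9% of all genes (6.75% higher, 5.17% lower). The proteoglycanase ADAMTS15 had the largest, 1.53 (adjusted p = 0.000833, limma), from 0.25 in CWR22Rv1 and -1.28 in DU145. ADAM23 read 5.89, 6.09 and 5.92 with Stat5a/b siRNA, against 5.66, 5.74 and 5.72 with scramble in CWR22Rv1, and its difference was 0.64 (adjusted p = 0.0188, 0.0541 without CWR22Rv1 Stat5a/b siRNA replicate 2, and 0.114 with the mean of its probe sets). The differences of ADAM22 (0.40), ADAM17 (0.34) and ADAM10 (0.33) were weaker. They were lost on leaving out any of 9, 9 and 3 of the 12 arrays, at adjusted p from 0.0502 to 0.116, and for ADAM17 and ADAM10 also with the mean of all probe sets (0.834 and 0.135). No MMP was called for either siRNA, with 4 at an unadjusted p under 0.05 for Stat3 siRNA and 1 for Stat5a/b siRNA.

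More members were called between the lines than in any siRNA comparison. Between scramble arrays, CWR22Rv1 against DU145, 29 of 64 members were called (14 higher, 15 lower), beside 56.9% of all genes (30.0% higher, 27.0% lower). In 14 of them the difference was at least 2-fold. Without overlap, 18 were higher and 15 lower, beside 63.5% of all genes. Of the 9 ADAM sheddases 6 were lower and 2 higher in CWR22Rv1, and of the 18 ADAMTS genes 7 were higher and 2 lower.

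TIMP2 read 4.87, 4.79 and 4.89 in CWR22Rv1 scramble arrays, against 11.12, 11.16 and 11.06 in DU145 scramble arrays. The difference of -6.26 ± 0.089 (n = 3 each, limma adjusted p = 3.6e-18) left 1.30% of the DU145 value, and the other 2 TIMP2 probe sets measured -3.70 and -5.88. MMP16, a membrane-type MMP, read 8.09, 7.98 and 8.05 in CWR22Rv1, against 3.18, 4.13 and 3.57 in DU145 (4.42 ± 0.218, n = 3 each, limma adjusted p = 1.34e-11). Its 4 other probe sets measured only 0.07 to 0.54. ADAMTS3 read 7.54, 7.43 and 7.41 in CWR22Rv1, against 3.57, 3.88 and 3.53 in DU145, a 13.9-fold difference.

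ADAMTS1, an aggrecan- and versican-cutting enzyme, read 6.92, 6.89 and 6.90 in CWR22Rv1, against 2.96, 3.58 and 3.56 in DU145 (3.54 ± 0.171, n = 3 each, limma adjusted p = 1.07e-11). ADAMTS15 went the other way, with 3.61, 4.203 and 4.18 in CWR22Rv1, against 7.54, 7.36 and 7.27 in DU145, leaving 9.54%. ADAM12 read 3.14, 3.23 and 3.20 in CWR22Rv1, against 5.80, 5.75 and 5.99 in DU145, leaving 15.9%, while its other 4 probe sets measured from -1.21 to 0.20. ADAM12 and ADAMTS15, whose responses differed between the lines, were thus both low in CWR22Rv1 scramble arrays. Other members with such a difference averaged 4.54 (ADAM19), 5.71 (ADAM23), 7.57 (ADAM22), 8.20 (ADAM17) and 10.50 (ADAM10) there. The part of these levels in the responses was not tested. ADAM19 (-2.53), ADAM17 (-1.47), ADAM9 (-1.09) and ADAM10 (-0.75) were also lower in CWR22Rv1, and ADAM22 was higher (1.31).

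STAT3 itself was lower in CWR22Rv1 scramble arrays, at 7.40, 7.21 and 7.24, against 10.91, 10.96 and 10.82 in DU145. The part of that difference in the members' responses was not tested.

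**Figure D5:**
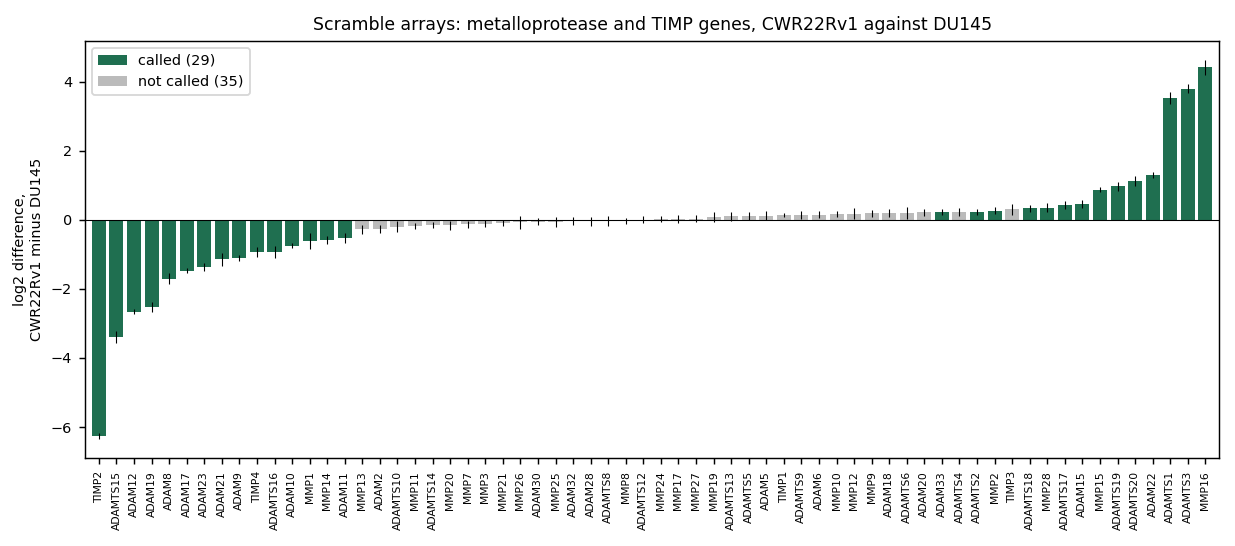
Log2 difference between CWR22Rv1 and DU145 scramble arrays for each of the 64 members, ordered by size; bars are differences, thin lines are standard errors, and green marks the 29 called genes. TIMP2, at -6.26, and MMP16, at 4.42, stand at the ends.

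Members lie together on some chromosomes. The order used was that of RefSeq's protein-coding genes on GRCh38.p14, with other genes left out. In it MMP7, MMP20, MMP27, MMP8, MMP10, MMP1, MMP3, MMP12 and MMP13 are 9 neighbours on chromosome 11. ADAMTS8 and ADAMTS15 are adjacent on the same chromosome. Of the 9 MMPs, MMP1 was called with Stat3 siRNA in DU145 and MMP10 with Stat3 siRNA in CWR22Rv1. MMP10 measured 0.00 where MMP1 rose, and MMP1 measured 0.19 (adjusted p = 0.775, limma) where MMP10 rose. ADAMTS8 measured -0.03 and -0.02 with Stat3 and Stat5a/b siRNA in DU145, where ADAMTS15 fell with both. ADAMTS1 and ADAMTS5, neighbours on chromosome 21, measured 3.54 and 0.11 between the scramble arrays of the lines.

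The loose AP-1 pattern TGANTCA was found in 4 of 36 member promoters (11.1%, against 7.76% of all 27305 promoters). They were MMP7, MMP10, MMP20 and ADAMTS12, of which the first 3 belong to the cluster on chromosome 11. Of these 4, only MMP7 had the AP-1 site itself, as TGAGTCA. MMP1 and ADAMTS15 were not among the 36, so their promoters were not searched. MMP10, MMP20 and ADAMTS12 read TGAATCA, whose middle base differs from that site. The windows of MMP10 and MMP7 are shown, with the match in capitals, because 1 of these cluster genes was called and the other was not. They lie on the minus strand at chr11:102780579-102780878 for MMP10 and at chr11:102530698-102530997 for MMP7.
MMP10: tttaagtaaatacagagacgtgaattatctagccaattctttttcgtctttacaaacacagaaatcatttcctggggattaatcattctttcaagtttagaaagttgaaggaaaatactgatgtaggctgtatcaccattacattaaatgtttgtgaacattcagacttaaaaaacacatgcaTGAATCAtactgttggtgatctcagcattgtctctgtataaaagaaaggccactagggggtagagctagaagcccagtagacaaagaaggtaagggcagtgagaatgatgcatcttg
MMP7: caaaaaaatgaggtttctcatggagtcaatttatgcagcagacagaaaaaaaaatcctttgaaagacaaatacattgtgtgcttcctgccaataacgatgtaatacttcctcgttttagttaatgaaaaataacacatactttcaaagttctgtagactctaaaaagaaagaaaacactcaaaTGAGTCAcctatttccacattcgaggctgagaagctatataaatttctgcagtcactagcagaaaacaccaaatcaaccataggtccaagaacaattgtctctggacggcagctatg
The match to the loose pattern started 67 bases before the gene start in both. G and C made up 36.3% of the MMP10 window and 35.7% of the MMP7 window. MMP7 measured -0.07 with Stat3 siRNA in CWR22Rv1, where MMP10 rose by 0.38. A match of letters is a description and not a binding site.

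A list of 43 genes that activate, inhibit or guide these proteases, or are shed by them, held 40 measured genes. With Stat3 siRNA in DU145, 3 rose and 7 fell, where 15.8% of all genes were called (7.51% higher, 8.25% lower). EGF and BTC, ligands of the EGF receptor that are shed from the membrane, fell by 0.69 and 0.66 (adjusted p = 0.00109 and 0.00135, limma). EGF was low, averaging 3.61 with Stat3 siRNA and 4.30 with scramble, below the 25th percentile of gene means, 4.42. CD44, a hyaluronan receptor that docks MMPs, read 10.66, 10.64 and 10.86 with Stat3 siRNA, against 10.22, 10.20 and 10.42 with scramble, a rise of 0.44 ± 0.072 (n = 3 each, limma adjusted p = 0.000444), though not called with the mean of its probe sets (0.0994). FRMD8, which stabilises the complex of iRhom and ADAM17, rose by 0.42, and BMP1, a procollagen C-proteinase, fell by 0.38. With DU145 fitted alone, the calls of BMP1 (0.0737) and SPOCK2 (0.0901) were lost. SPOCK2, a testican, fell by 0.52 (adjusted p = 0.0147, and 0.0722 and 0.054 without scramble replicate 1 or Stat3 siRNA replicate 3, and 0.49 with the mean of its probe sets).

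With Stat5a/b siRNA in DU145, 3 of the 40 rose and 9 fell, where 24.3% of all genes were called (11.8% higher, 12.5% lower). SPOCK2 fell by 0.86 ± 0.136 (adjusted p = 0.000221, limma). The convertase PCSK7, of a family that removes the propeptides of ADAMs and membrane-type MMPs, read 7.82, 7.85 and 7.81, against 8.46, 8.36 and 8.57 with scramble (-0.64 ± 0.092, n = 3 each, limma adjusted p = 9.11e-05). RHBDF2, which encodes iRhom2, the carrier of ADAM17 to the cell surface, fell by 0.55 ± 0.100 (adjusted p = 0.000785). EGF fell by 0.53, the papilin gene PAPLN fell by 0.42 and the meprin gene MEP1B rose by 0.48. EGF (3.77, against 4.30 with scramble) and MEP1B (3.62, against 3.14) averaged below the 25th percentile of gene means, 4.42. The call of PAPLN was lost without scramble replicate 1 (0.0712) or Stat5a/b siRNA replicate 2 (0.0707).

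In CWR22Rv1 4 of the 40 fell with Stat3 siRNA and 0 rose, where 4.77% of all genes were called (2.75% higher, 2.02% lower). SPOCK2 fell by 0.67 (adjusted p = 0.00902, limma), to 8.93, 8.83 and 8.75, against 9.52, 9.51 and 9.49 with scramble. BTC (-0.49), the urokinase gene PLAU (-0.45) and CD44 (-0.29) were called too, but each lost its call on leaving out any of 5 or more of the 6 arrays, at adjusted p from 0.0514 to 0.146. None of the 40 was called by limma with Stat5a/b siRNA (6.46% of all genes were), and 4 had an unadjusted p under 0.05. The change of CD44 with Stat3 siRNA differed between the lines, by -0.73 ± 0.101 in CWR22Rv1 against DU145 (adjusted p = 0.00157, limma), though not with the mean of all its probe sets (0.2).

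Of the other differences, SERPINE2, a serine protease inhibitor, was higher by 0.68 with Stat5a/b siRNA than with Stat3 siRNA in DU145 (adjusted p = 1.25e-05, limma), while RHBDF2 was lower by 0.53 and PCSK7 by 0.47 (0.147 with the mean of its probe sets). Between the scramble arrays, 20 of the 40 were lower in CWR22Rv1 and 5 higher, where 56.9% of all genes were called (27.0% lower, 30.0% higher). PLAU, which generates plasmin, averaged 4.66 in CWR22Rv1 and 12.14 in DU145. EREG, an EGF family ligand shed by ADAM17, was lower by 7.36, and SPOCK1 was higher by 6.20.

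Markers of other cell types were read beside these results. Of 4 leukocyte markers, CD14 fell in DU145, by 1.09 with Stat3 siRNA and by 0.96 with Stat5a/b siRNA. The summed values of the list ran from 19.62 to 19.65 with Stat3 siRNA and from 19.1 to 20.6 with Stat5a/b siRNA, against 19.98 to 20.97 with scramble. Sums here are of log2 values and do not measure total RNA. PTPRC, the pan-leukocyte gene, averaged 2.96, 3.10 and 3.04 in those groups, in that order. CD3E averaged 4.69, 4.82 and 4.63 and CD79A averaged 6.95, 6.99 and 6.80, both uncalled. In CWR22Rv1 LUM, 1 of 4 fibroblast markers, was called lower with Stat3 siRNA (-0.66), with list sums of 20.8 to 21.3, against 21.7 to 22.1 with scramble. AXL, 1 of 2 mesenchymal markers, fell in CWR22Rv1 with both siRNAs, by 1.54 and 1.48. In DU145 it was called lower with Stat5a/b siRNA, by 0.62, near the threshold (adjusted p = 0.0486, limma) and with overlapping arrays. VIM, the other, was higher by 0.22 in DU145 with Stat3 siRNA. Of 3 epithelial markers, EPCAM fell in DU145 by 0.49 with Stat3 siRNA and by 0.40 with Stat5a/b siRNA. KRT8 measured -0.21 and -0.11 and KRT18 -0.16 and 0.06 in those comparisons, uncalled. The sums of the 3 ran from 34.04 to 34.45 with Stat3 siRNA and from 34.6 to 34.9 with Stat5a/b siRNA, against 35.0 to 35.4 with scramble. No array value is 0 on this scale, and the part of these genes in the members' changes was not tested.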

How the data were processed

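RNA from 18 transfected samples was measured on Affymetrix U133 Plus 2.0 arrays. As deposited, each probe set has a log2 expression value. RMA and limma are listed, with no version, per the submitters' processing notes; other upstream settings are not given in the sources used here. Detection calls were not used, so distance from background is not known for any value, and 3 arrays per group limit the precision. Of 54675 probe sets, 41091 carried 1 gene symbol in the platform annotation, 1801 several, 11721 none, and 62 were controls. The 64 members had 145 single-symbol probe sets, 43 members having more than 1.

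One model with 6 group means was fitted to all arrays with lmFit and eBayes (limma 3.58.1, R 4.3.3; 12 residual degrees of freedom), without further scaling, and was tested on simulated data. Tests were two-sided. The standard error of a change was 0.0583 to 0.237 over members, with a median of 0.113. The members, lists, alternatives and the rule for naming genes were chosen with earlier results of these data known: every called member may be named, with array values for the 6 largest changes of a comparison and for TIMP1 to TIMP4, MMP2, MMP7, MMP9, MMP14, ADAM9, ADAM10 and ADAM17. Partner genes were named if called, up to 6 per comparison. Alternatives were a replicate block, each line alone, quantile normalisation, leaving out the lower 40% of genes, the mean of all probe sets, trend and robust eBayes, each array left out and, chosen after seeing the data, all probe sets fitted together. Same-numbered DU145 arrays of Stat3 siRNA and scramble deviated together (0.158 to 0.328 in all 3 pairs). There the replicate numbers probably pair samples, which the labels do not state. For Stat5a/b siRNA and scramble, same-numbered pairs lay lower, at 0.0635 to 0.175 in DU145 and 0.053 to 0.139 in CWR22Rv1. They were still above all pairs of different numbers (highest 0.055 and 0.0177), so pairing is possible there. Elsewhere, as between the siRNAs in DU145 (same-numbered pairs at 0.0116 to 0.087), the numbers were not shown to pair samples. No replicate block was used in the reported fit, which treats all arrays as unpaired. Promoters came from a RefSeq table of GRCh38.p14, in which 36 members were found. Protein sequences were not used here.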

Additional observations from a re-analysis of the deposited data

Results flagged for a closer look

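The siRNA effect differed between the lines, by the interaction test in limma, for 8 results, given as CWR22Rv1 minus DU145. With Stat3 siRNA the difference was -1.68 for ADAM12, -1.001 for ADAM19 and 0.50 for ADAM22. With Stat5a/b siRNA it was 1.53 for ADAMTS15, 0.64 for ADAM23, 0.40 for ADAM22, 0.34 for ADAM17 and 0.33 for ADAM10. ADAM22 was the member flagged with both siRNAs, whose comparisons share the scramble arrays. In CWR22Rv1 scramble arrays ADAM12 averaged 3.19 and ADAMTS15 averaged 3.997, against 5.85 and 7.39 in DU145 scramble arrays. ADAM19, ADAM23, ADAM22, ADAM17 and ADAM10 averaged 4.54, 5.71, 7.57, 8.20 and 10.50 in CWR22Rv1 scramble arrays. The part of these levels in the flagged differences was not tested.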

How the results depend on the processing

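Leaving out 1 array at a time gave 6 to 9 called members, against 7 with all arrays, for Stat3 siRNA in DU145, 6 to 10 against 11 for Stat5a/b siRNA in DU145, 0 to 2 against 2 for Stat3 siRNA in CWR22Rv1, and 1 to 2 against 2 for Stat5a/b siRNA in CWR22Rv1. Between the siRNAs the range was 5 to 11 against 9 in DU145 and 1 to 2 against 2 in CWR22Rv1. For the differences between the lines it was 2 to 5 against 3 with Stat3 siRNA and 2 to 7 against 5 with Stat5a/b siRNA, and for the scramble arrays 25 to 28 against 29.

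Leaving out the lower 40% of genes kept 25 members in the fit, so fewer could be called: 4 and 7 in DU145 with Stat3 and Stat5a/b siRNA, 1 in CWR22Rv1 with Stat3 siRNA, 5 and 1 between the siRNAs in DU145 and CWR22Rv1, and 16 between the scramble arrays. With each line fitted alone, 5 were called for Stat5a/b siRNA in DU145 and 5 between the siRNAs in DU145, but 4 for Stat3 siRNA in CWR22Rv1 and 4 between the siRNAs in CWR22Rv1. With the mean of all probe sets, 0 were called for Stat5a/b siRNA in CWR22Rv1 (limma) and 4 between the siRNAs there, and ADAM33 with Stat5a/b siRNA in DU145 was -0.11. The split for Stat5a/b siRNA in DU145, 5 higher and 6 lower, became 1 and 4 with DU145 alone, and 2 and 6 both with the mean of all probe sets and with all probe sets fitted together. Trend and robust eBayes gave 1 for Stat5a/b siRNA in CWR22Rv1. All probe sets fitted together gave 1 for it and 2 for the Stat5a/b difference between the lines. Quantile normalisation turned the split of the Stat3 difference from 1 higher and 2 lower into 0 higher and 3 lower. The cause of these shifts was not tested, other than the fewer members in the filtered fit.

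Samples with the same replicate number correlated in their deviations at 0.0116 to 0.328 in DU145 and -0.0666 to 0.139 in CWR22Rv1, against -0.241 to 0.055 and -0.104 to 0.113 for different numbers. Between Stat3 siRNA and scramble arrays of DU145 all 3 same-numbered pairs lay above 0.1, at 0.158 to 0.328, so there the numbers probably pair samples. In the other comparisons not every pair did. For Stat5a/b siRNA and scramble, same-numbered pairs lay at 0.0635 to 0.175 in DU145 and 0.053 to 0.139 in CWR22Rv1. Pairs of different numbers reached at most 0.055 and 0.0177 there, so pairing is possible. In the remaining comparisons the numbers were not shown to pair samples. With the replicate block the counts were 7, 12, 2 and 2 against scramble (Stat3 and Stat5a/b siRNA in DU145, then in CWR22Rv1), 9 and 3 between the siRNAs, and 3 and 6 between the lines. The calls of MMP28 with Stat5a/b siRNA and of MMP14 between the siRNAs in DU145 were lost with it (adjusted p = 0.0695 and 0.0512). No named call of Stat3 siRNA against scramble in DU145 changed with it. No block could be fitted between the lines' scramble arrays.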
